A study of Mus musculus with 20 samples.

Results

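Colonic stem cells of mice with and without a microbiota were compared at 15 weeks of age, in 6 of the 20 samples of a whole-genome bisulfite sequencing series. The 6 samples were picked by their titles: 2 are from SPF mice and 4 from GF mice, and all 1195 regions of the deposited table of differentially methylated regions were used. The label SPF was taken to mean specific-pathogen-free mice, which have microbes in the gut, and GF germ-free mice. All mice, in both groups, are C57BL/6J and have the genotype Lgr5EGFP-IRES-CreERT2, which places a green fluorescent protein and a drug-inducible Cre recombinase under the promoter of Lgr5, a marker of intestinal stem cells. The label calls the cells colonic stem cells, and no isolation method is stated in the labels. Methylation alone cannot show the expression of a stem cell marker, so the label was not checked in that way, and Lgr5 itself has no region in the table. Odd replicate numbers are male and even ones female in each group. GF replicates 1 and 2 have identifiers that end in Co, as both SPF samples do, and GF replicates 3 and 4 have identifiers that begin with GFp. The meaning of both styles is unknown, so values are also given within the Co style. Whether a sample is 1 mouse or a pool is not stated, so p-values reflect variation between samples that may be technical.

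In mammals most CpG sites (a cytosine followed by a guanine) carry a methyl group, and low methylation marks active promoters and enhancers. The maintenance methyltransferase copies the pattern at each cell division, so changes in a stem cell can pass to the cells that descend from it. In the colon, stem cells at the base of the crypt renew the whole epithelium, which faces the luminal microbes and answers them with antigen presentation, antimicrobial proteins and mucus. The study's title asks how a gut microbiome established at weaning acts on the epigenetics of these cells. The regions are taken as chosen by the authors for the present contrast, because the rows of their table stand in exact order of the SPF mean minus the GF mean of these 6 samples, in 1194 of 1194 neighbouring pairs. All results on that contrast are therefore a description. Each value is the methylation fraction of a region in a sample, from 0 to 1. The number of reads behind it is unknown, so a single fraction has no interval here.

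Few regions overlapped a promoter window, and the number expected from random placement was not worked out. Of 32817 RefSeq promoter windows (the 250 bases before a gene's start, GRCm38.p6, the same build as mm10), 28 at 25 genes overlapped a region. The windows of 3 genes are shown for their contrast: Ifitm3 and Apobec3, antiviral genes with a whole window inside a region and few CpGs, and Igf2r, an imprinted receptor gene with a CpG-rich window. They are printed 5′ to 3′ on the strand of the gene, with CpG sites in capitals, for Ifitm3 chr7:141010745-141010994 on the minus strand, for Apobec3 chr15:79894773-79895022 on the plus strand and for Igf2r chr17:12769707-12769956 on the minus strand.
Ifitm3: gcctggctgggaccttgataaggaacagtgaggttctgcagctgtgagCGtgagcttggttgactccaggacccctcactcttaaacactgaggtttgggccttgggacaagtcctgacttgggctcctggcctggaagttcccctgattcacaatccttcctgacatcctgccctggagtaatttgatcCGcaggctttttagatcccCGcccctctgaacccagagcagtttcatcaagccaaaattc
Apobec3: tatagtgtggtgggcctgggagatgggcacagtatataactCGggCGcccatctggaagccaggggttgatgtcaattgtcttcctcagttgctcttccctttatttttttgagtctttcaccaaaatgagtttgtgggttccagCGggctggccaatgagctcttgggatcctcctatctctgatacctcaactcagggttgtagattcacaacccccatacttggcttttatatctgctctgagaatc
Igf2r: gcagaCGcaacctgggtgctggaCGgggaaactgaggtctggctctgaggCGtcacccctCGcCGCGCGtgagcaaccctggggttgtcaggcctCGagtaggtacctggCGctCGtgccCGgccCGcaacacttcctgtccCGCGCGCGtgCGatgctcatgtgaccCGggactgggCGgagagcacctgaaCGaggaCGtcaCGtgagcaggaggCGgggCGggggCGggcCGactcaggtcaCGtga
The windows of Ifitm3 and Apobec3 hold 3 CpGs each and that of Igf2r 27, beside a median of 6 over all windows and 4 over those that overlap a region. The region of Igf2r covers bases 144 to 225 of its window, with 11 CpGs.

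Every one of the 1195 regions had a lower mean in SPF than in GF stem cells, with differences from -0.656 to -0.145 and a median of -0.221. Averaged over regions, methylation was 0.360 and 0.348 in the SPF samples and 0.591, 0.583, 0.606 and 0.606 in the GF samples. The groups did not overlap, and their means differed by -0.242 (p = 0.133 in a two-sided exact permutation test, which cannot go lower with 2 against 4 samples). The regions are taken as chosen for this contrast, which itself favours such a separation. The p-value and the counts below are therefore a description. Against the Co-style GF samples alone the difference was -0.232. Limma, with Benjamini-Hochberg adjustment over all regions, called 1162 regions lower (97.2%) and 0 higher, also at an unadjusted p under 0.05. In 1138 regions (95.2%) both SPF values lay under all 4 GF values. The median space between the higher SPF value and the lowest GF value was 0.126, and it exceeded 0.4 in 22 regions. Samples of a group were closer to each other than to the other group: the mean absolute difference per region was 0.054 between the SPF samples, 0.077 to 0.094 between GF samples and 0.223 to 0.259 between an SPF and a GF sample.

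At most regions the groups differed by part of the methylation, not by its presence or absence. Of the GF means, 607 exceeded 0.6 and 3 were under 0.2, and of the SPF means 106 and 239 did. The SPF level was a median of 0.584 of the GF level, and the order of regions was largely kept between groups (Spearman's rho 0.877 across regions that share libraries, as a description). In 7 regions the mean crossed from over 0.6 in GF to under 0.2 in SPF cells. They lie in Ciita, Plcb4, Lgals9, Lnx2 and Hydin and near Poc1b and Cd14. Lgals9, which encodes the glycan-binding protein galectin-9, stood at 0.176 and 0.143 in the SPF samples and 0.621, 0.708, 0.670 and 0.750 in the GF samples. The region nearest to Cd14, the co-receptor for bacterial lipopolysaccharide, stood at 0.178 and 0.149 in the SPF samples and 0.715, 0.689, 0.673 and 0.708 in the GF samples. At the other end of the table, the region shared by Dmbt1 and Fgfr2 stood at 0.656 and 0.661 against 0.854, 0.791, 0.727 and 0.842. Among the lowest SPF levels were Optn, an autophagy receptor, at 0.0096 and 0.047 against 0.175, 0.316, 0.293 and 0.331 and a region of Bcl3, a regulator of NF-kB, at 0.019 and 0.036 against 0.334, 0.227, 0.129 and 0.240. There the GF cells were themselves mostly unmethylated.

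**Figure D1:**
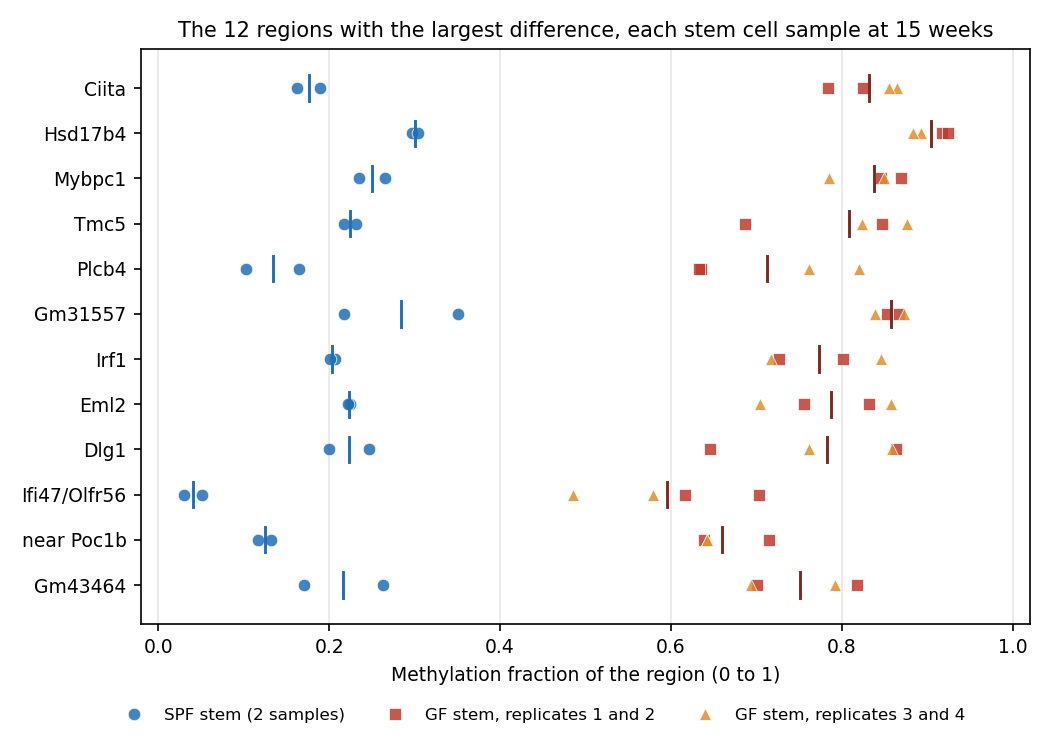
Methylation fraction (x axis) of the 12 regions with the largest difference (y axis), with 1 symbol per stem cell sample at 15 weeks and a vertical bar at each group mean. SPF samples stand between 0.030 and 0.351 and GF samples between 0.485 and 0.924, and the groups do not overlap in any of the 12.

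The largest differences included genes of immunity, metabolism and cell architecture. Ciita (chr16:10490450-10491033, mm10, inside the gene, a proximal enhancer-like element), the master activator of MHC class II genes, stood at 0.162 and 0.190 in the SPF samples and 0.784, 0.825, 0.865 and 0.855 in the GF samples. Hsd17b4 (chr18:50175607-50175749, inside the gene), an enzyme of peroxisomal fatty acid oxidation, stood at 0.297 and 0.304 against 0.917, 0.924, 0.893 and 0.883. The SPF samples were close to each other at both genes, and all GF samples were mostly methylated. Irf1 (chr11:53773336-53774766, inside the gene), a transcription factor induced by interferons, stood at 0.207 and 0.201 against 0.726, 0.802, 0.718 and 0.846. The region shared by Ifi47, an interferon-inducible GTPase, and Olfr56 (chr11:49086705-49087358, a promoter-like element) was almost unmethylated in SPF cells, at 0.030 and 0.051 against 0.617, 0.703, 0.485 and 0.579. Dlg1 encodes a scaffold protein of cell polarity. Its region (chr16:31661743-31662797, 646 bp before the start site) stood at 0.246 and 0.20 against 0.646, 0.864, 0.762 and 0.859. Tmc5, of the transmembrane channel-like family, stood at 0.231 and 0.218 against 0.687, 0.847, 0.876 and 0.824. Plcb4, a phospholipase C, stood at 0.103 and 0.165 against 0.635, 0.633, 0.820 and 0.761, where the GFp-style samples were the higher pair of GF samples. Gm31557 and Gm43464 are predicted genes without an assigned role. The former held the widest SPF pair of the 12, at 0.218 and 0.351 against 0.867, 0.853, 0.873 and 0.838.

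Among the regions that followed in size were those of Tnip1, Plet1 and Cemip2. Tnip1, an inhibitor of NF-kB signalling, stood at 0.221 and 0.196 against 0.674, 0.720, 0.798 and 0.726. Plet1, a surface protein of epithelial progenitors, held the region with the most CpGs of the table (49 CpGs, chr9:50494687-50498115), at 0.337 and 0.273 against 0.785, 0.775, 0.776 and 0.730. Across all regions the SPF minus GF difference and the region's length were almost unrelated (Spearman's rho -0.080, as a description). Cemip2, a cell-surface hyaluronan-degrading protein, stood at 0.444 and 0.309 against 0.887, 0.871, 0.888 and 0.908. All GF samples lay above both SPF samples at these genes. In 57 regions the groups overlapped. Of the 64 regions shorter than 200 bp, 18 overlapped (28.1%), against 39 of 1131 longer ones (3.45%).

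Among the gene lists with at least 3 regions, antigen presentation had the most negative median and Wnt signalling the least. The lists were chosen with earlier results of these data known, so their order is a description. The antigen presentation regions at Psmb9, Psmb8, H2-Ab1 and H2-Aa lie in a single stretch of 111403 bp, so they are neighbours. The antigen presentation and MHC list held 11 regions at 9 genes, with a median difference of -0.328 beside -0.221 for all 1195 regions, and the groups were separate in all 11, as in 95.2% of all regions. B2m, the light chain of MHC class I, in a region shared with Patl2, stood at 0.290 and 0.204 against 0.601, 0.703, 0.709 and 0.738. Cd74, the invariant chain of class II, had 2 regions, the first at 0.463 and 0.495 against 0.890, 0.902, 0.910 and 0.912 and the second at 0.719 and 0.677 against 0.848, 0.879, 0.880 and 0.877. Psmb8 and Psmb9 encode subunits of the immunoproteasome, which cuts peptides for class I. Psmb8 stood at 0.351 and 0.292 against 0.702, 0.664, 0.755 and 0.709 and Psmb9 at 0.661 and 0.619 against 0.790, 0.830, 0.850 and 0.725. Nlrc5, an activator of class I genes, stood at 0.637 and 0.544 against 0.788, 0.837, 0.798 and 0.803. The SPF samples were lower throughout, and Psmb9 and Nlrc5 kept levels above 0.5 in SPF cells.

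For the interferon response, 14 regions at 11 genes had a median of -0.301, and the groups were separate in all 14, beside 95.2% of all regions. It spans the pathway from receptor to targets. Ifnlr1, which encodes part of the receptor for interferon lambda, stood at 0.521 and 0.542 against 0.816, 0.911, 0.826 and 0.870. A region of Irf9, a transcription factor of the interferon response, stood at 0.576 and 0.566 against 0.846, 0.846, 0.853 and 0.873. Both genes remained partly methylated in SPF cells. The region shared by Tgtp2, an interferon-inducible GTPase, and Olfr56 stood at 0.354 and 0.383 against 0.786, 0.794, 0.846 and 0.752. Socs3, a feedback inhibitor of cytokine signalling, had the smallest difference of the list, at 0.711 and 0.722 against 0.884, 0.887, 0.891 and 0.914. The 4 regions of genes for microbial sensing and NF-kB had a median of -0.261. Besides Tnip1 they lie in the kinase gene Tbk1 (0.351 and 0.338 against 0.599, 0.670, 0.646 and 0.629), the RNA sensor gene Ifih1 (0.455 and 0.509 against 0.731, 0.674, 0.756 and 0.686) and Nfkb1 (0.335 and 0.321 against 0.481, 0.491, 0.575 and 0.615), which encodes a subunit of NF-kB. No toll-like receptor gene of the list had a region.

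**Figure D2:**
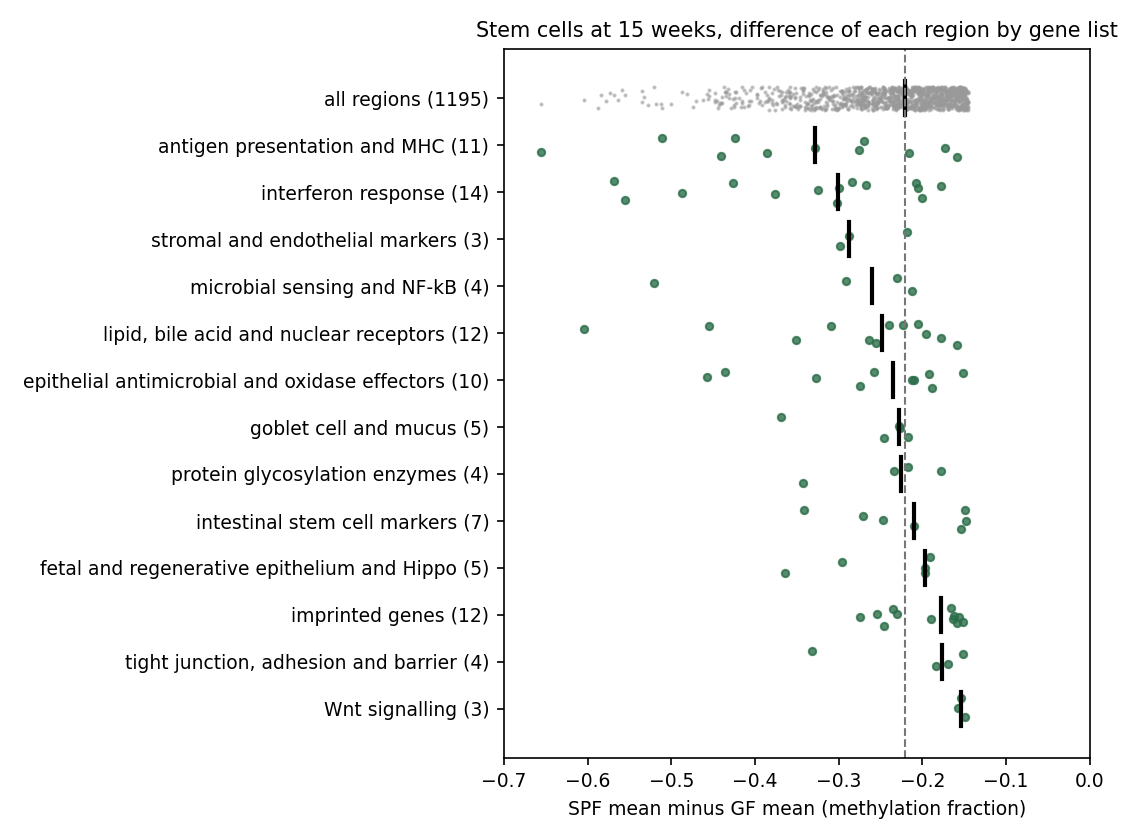
SPF mean minus GF mean (x axis, methylation fraction) of each region on the gene lists with at least 3 regions (y axis, number of regions in brackets); black bars are medians and the dashed line is the median of all regions, -0.221. The antigen presentation and interferon lists have medians of -0.328 and -0.301 and the Wnt list -0.154. The lists were chosen with earlier results of these data known.

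Epithelial effector genes were near the overall level of difference. The antimicrobial and oxidase list held 10 regions with a median of -0.235. Duoxa2, which brings the oxidase Duox2 to the cell surface, stood at 0.381 and 0.250 against 0.707, 0.761, 0.808 and 0.732, and Il22ra1, the epithelial receptor subunit for interleukin 22, at 0.209 and 0.225 against 0.470, 0.534, 0.596 and 0.577. Pigr, which carries IgA across the epithelium, stood at 0.275 and 0.286 against 0.528, 0.491, 0.496 and 0.449. All GF values lay above the SPF values at the 3 genes. Pla2g5, a secreted phospholipase, had 4 regions with differences of -0.457, -0.257, -0.193 and -0.152. Nox1, a superoxide-generating oxidase of the colon, had 2 regions on the X chromosome with differences of -0.212 and -0.189. Ido1, an enzyme of tryptophan breakdown, stood at 0.552 and 0.526 against 0.864, 0.847, 0.697 and 0.846.

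The lists of stem cell markers and of goblet cell genes had medians close to that of all regions. Stem cell markers held 7 regions at 6 genes with a median of -0.210, and all 7 were separate between groups, beside 95.2% of all regions. Axin2, a target and inhibitor of Wnt signalling, stood at 0.389 and 0.406 against 0.643, 0.732, 0.720 and 0.863. Prom1, which encodes the surface protein CD133, stood at 0.305 and 0.247 against 0.359, 0.486, 0.673 and 0.669, and its GF samples fell apart by identifier style. Cdca7 was nearly unmethylated in SPF cells and low in GF cells, at 0.040 and 0.046 against 0.201, 0.157, 0.194 and 0.218. Goblet cell and mucus genes held 5 regions with a median of -0.228. Muc13, a membrane mucin, stood at 0.212 and 0.244 against 0.502, 0.542, 0.612 and 0.734 in its first region and 0.477 and 0.344 against 0.576, 0.617, 0.683 and 0.676 in its second. Muc1, another membrane mucin, stood at 0.384 and 0.306 against 0.590, 0.574, 0.557 and 0.642. The 4 regions of the glycosylation list had a median of -0.226, among them the sialyltransferase gene St3gal3 at 0.105 and 0.095 against 0.463, 0.462, 0.342 and 0.504. The single regions of the absorptive colonocyte, Notch, DNA methylation and BMP lists were at Ceacam1 (-0.323), Jag1 (-0.238), Idh1 (-0.207) and Smad1 (-0.147), each value being SPF minus GF. Wnt signalling had 3 regions, with a median of -0.154, at the co-receptor gene Lrp5 and the transcription factor gene Tcf7l2. One of the Tcf7l2 regions overlapped between groups, at 0.098 and 0.060 against 0.419, 0.098, 0.065 and 0.349. The Wnt list does not take in every gene of the pathway. Axin2 was counted with the stem cell markers. A region named for Wnt3a, which the list count left out, had a difference of -0.274.

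Metabolic genes spread over the whole range. The list of lipid, bile acid and nuclear receptor genes held 12 regions at 8 genes with a median of -0.248. Elovl5, an enzyme of fatty acid elongation, stood at 0.214 and 0.211 against 0.737, 0.682, 0.638 and 0.613, and Cpt1a, which brings fatty acids into mitochondria, at 0.561 and 0.473 against 0.824, 0.788, 0.721 and 0.792. Esrrg and Nr3c2, the latter the mineralocorticoid receptor gene, had 2 regions each. The first of Nr3c2 stood at 0.137 and 0.186 against 0.475, 0.467, 0.592 and 0.517 and the second at 0.061 and 0.074 against 0.476, 0.117, 0.182 and 0.129, where GF replicate 1 stood apart and the other 3 GF samples were close to the SPF samples. Pparg, a nuclear receptor active in the colon epithelium, stood at 0.438 and 0.438 against 0.676, 0.689, 0.669 and 0.538. The fetal and regenerative list had a median of -0.196 over 5 regions. Igf2bp2, an RNA-binding protein of fetal tissues, stood at 0.103 and 0.105 against 0.490, 0.515, 0.439 and 0.430, and Tead1, a transcription factor of the Hippo pathway, at 0.437 and 0.335 against 0.653, 0.612, 0.759 and 0.702. The barrier list had a median of -0.177 over 4 regions, with the integrin gene Itga6 at 0.209 and 0.197 against 0.444, 0.556, 0.589 and 0.551. Lists of enteroendocrine and tuft cells, of the circadian clock and of immune cell markers held 0 regions.

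Markers of endothelium and smooth muscle, which a preparation of epithelial cells should lack, held 3 regions with a median of -0.287. Pecam1 stood at 0.40 and 0.364 against 0.707, 0.709, 0.60 and 0.708, Vwf at 0.074 and 0.151 against 0.526, 0.398, 0.413 and 0.261 and Acta2 at 0.217 and 0.285 against 0.467, 0.423, 0.462 and 0.525. The SPF mean was lower at all 3, as at all 1195 regions. The immune cell marker list, of 44 genes, had no region, which says nothing of genes outside it. Cd74 and H2-Aa, for example, were counted with antigen presentation. A different share of cells of another type and a different methylation level per cell cannot be told apart in these samples. Their part in the result was not tested.

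Regions were often near each other. With a gap of at most 50 kb, 328 regions (27.4%) fell into 135 groups of neighbours, and 32 groups held 3 or more. A stretch of 111403 bp on chromosome 17 held 7 regions from Psmb9 to H2-Eb1, the part of the MHC with the class II genes. Its SPF means ran from 0.249 at H2-Aa, a class II chain, to 0.640 at Psmb9, and its GF means from 0.486 near Tap2, a peptide transporter gene, to 0.802 near H2-Eb1. All 7 were separate between groups, beside 95.2% of all regions. Within the stretch the difference varied from -0.511 to -0.159. The 2 regions of H2-Ab1, another class II chain, stood at 0.329 and 0.282 against 0.518, 0.571, 0.562 and 0.652 and 0.426 and 0.408 against 0.607, 0.652, 0.703 and 0.809.

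The long noncoding RNA gene Lncpint, on chromosome 6, also held 7 regions, over 53849 bp, with a median difference of -0.287. The largest of them stood at 0.290 and 0.259 against 0.758, 0.674, 0.747 and 0.694. The SPF and GF means rose and fell in parallel along this gene from each region to the next, as the plot by distance shows, though not by equal amounts. In the MHC stretch they did not: from H2-Ab1 to H2-Aa the SPF mean was lower and the GF mean higher. Aopep, an aminopeptidase gene on chromosome 13, held 8 regions, 7 of them within 36674 bp with a median of -0.178. A group of 5 regions within 4592 bp lay 14654 to 18972 bp from Fgd2, the gene of a Cdc42 activator, and ran from -0.417 to -0.157. The SPF and GF values were separate at every region of these groups, which is near the share over all regions. Eps8, which encodes an actin-binding protein of microvilli, held 5 regions, and Frmd4b, a scaffold protein gene, also 5. Gm20388, a locus that spans many genes on chromosome 8, held 11.

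**Figure D3:**
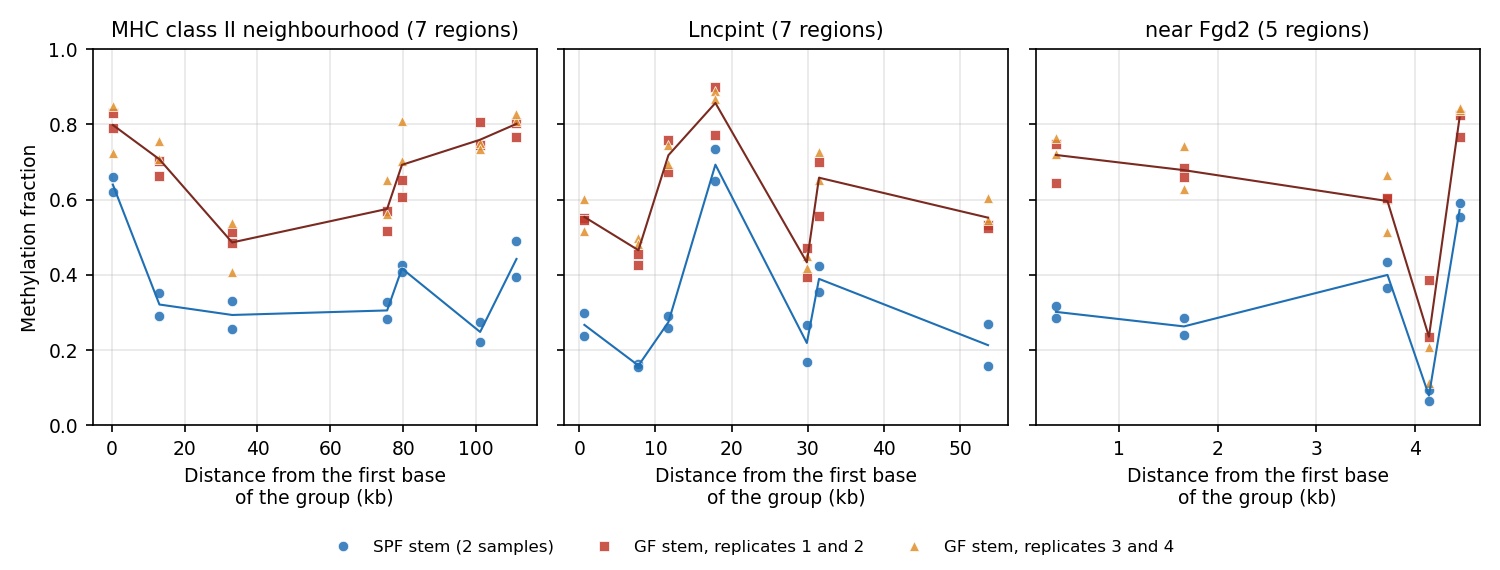
Methylation fraction (y axis) in each stem cell sample at 15 weeks by distance in kb (x axis) within 3 groups of neighbouring regions; lines join the group means. SPF samples lie below GF samples at each region, and the group means change in the same direction from each region to the next along Lncpint but not throughout the other 2 groups, with means from 0.079 to 0.818 near Fgd2.

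The median difference ran from -0.268 at the 6 regions in CTCF-only elements to -0.196 at the 21 in DNase-H3K4me3 elements. Distal enhancer-like elements held 421 regions (35.2%) with a median of -0.225, proximal ones 116 with -0.218 and promoter-like elements 24 with -0.220, and 607 regions outside any element had -0.218, the elements being those annotated in the deposited table. The 709 regions inside genes and without a nearby start site had a median of -0.222, the 46 with a nearby start site -0.211, and 440 regions away from genes and start sites had -0.221. By chromosome, the X had 7 regions, or 0.725 per 100 protein-coding genes, against 3.05 to 8.93 on the autosomes.

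The region of Ifitm3, a membrane protein that blocks virus entry, stood at 0.105 and 0.088 in the SPF samples and 0.332, 0.322, 0.324 and 0.491 in the GF samples. The first 3 GF samples were close together and the last stood apart from them. Apobec3, a cytidine deaminase that acts on retroviruses, was higher in both groups, at 0.418 and 0.428 against 0.743, 0.807, 0.664 and 0.879. The groups did not overlap in either of these regions, each of which reaches beyond the promoter window. In differentiated cells the corresponding differences were -0.221 ± 0.052 (SE, limma, adjusted p = 0.00083) and -0.394 ± 0.057 (adjusted p = 7.2e-06). The binding motif of AP-1, TGANTCA on either strand, is in the Ifitm3 window, in 2 of the 28 and in 6.75% of all windows. The interferon-stimulated response element, on both strands, is in 2.97% of all windows and in 1 of the 28, none of those printed. The GAS element, TTCNNNGAA, on both strands, is in 7.01% of all and 3 of the 28. The NF-kB consensus, searched on both strands with its central bases free, is in 45.8% of all and 14 of the 28, and the E-box CACGTG in 6.02% and 3, that of Igf2r among them. Matches of different motifs may overlap, and no match says whether a factor binds.

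Imprinted genes, whose control regions are methylated on a single parental copy in most tissues, varied within the GF group. They were picked out after their values were seen, and 12 regions at 11 such genes are in the table. In SPF cells their mean was 0.381 and 0.373. In GF cells it was 0.479 and 0.498 in the Co-style samples and 0.668 and 0.658 in the GFp-style samples. The SPF minus GF median over the 12 was -0.178, or -0.1003 against the Co-style GF samples and -0.291 against the GFp-style ones, where all 1195 regions had -0.217 and -0.232. GFp-style samples had the higher mean in 9 of the 12 regions and in 58.9% of all regions.

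At Igf2r, the receptor that clears the growth factor IGF2, the region over its promoter stood at 0.285 and 0.422 in the SPF samples and 0.381, 0.491, 0.827 and 0.813 in the GF samples. The Co-style GF samples overlapped the SPF samples and the GFp-style ones were far above. Impact, a regulator of translation, showed the same order, at 0.461 and 0.456 against 0.479, 0.445, 0.806 and 0.757, with Co-style GF samples around the SPF values. At Inpp5f, a phosphoinositide phosphatase gene, values were 0.414 and 0.432 against 0.530, 0.448, 0.817 and 0.819, with the Co-style GF samples just above the SPF samples. The region between Peg10, a retrotransposon-derived placental gene, and Sgce, which share a promoter region, stood at 0.416 and 0.438 against 0.333, 0.471, 0.679 and 0.858. Its SPF mean was above that of the Co-style GF samples by 0.0245 and under that of the GFp-style samples. At Cdkn1c, a cell cycle inhibitor gene, the order was SPF, Co-style and GFp-style, at 0.198 and 0.173 against 0.336, 0.289, 0.533 and 0.568. Gnas, which encodes a G-protein subunit, and Slc22a3, an organic cation transporter gene, did not split in this way. Gnas stood at 0.183 and 0.187 against 0.412, 0.508, 0.443 and 0.315.

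**Figure D4:**
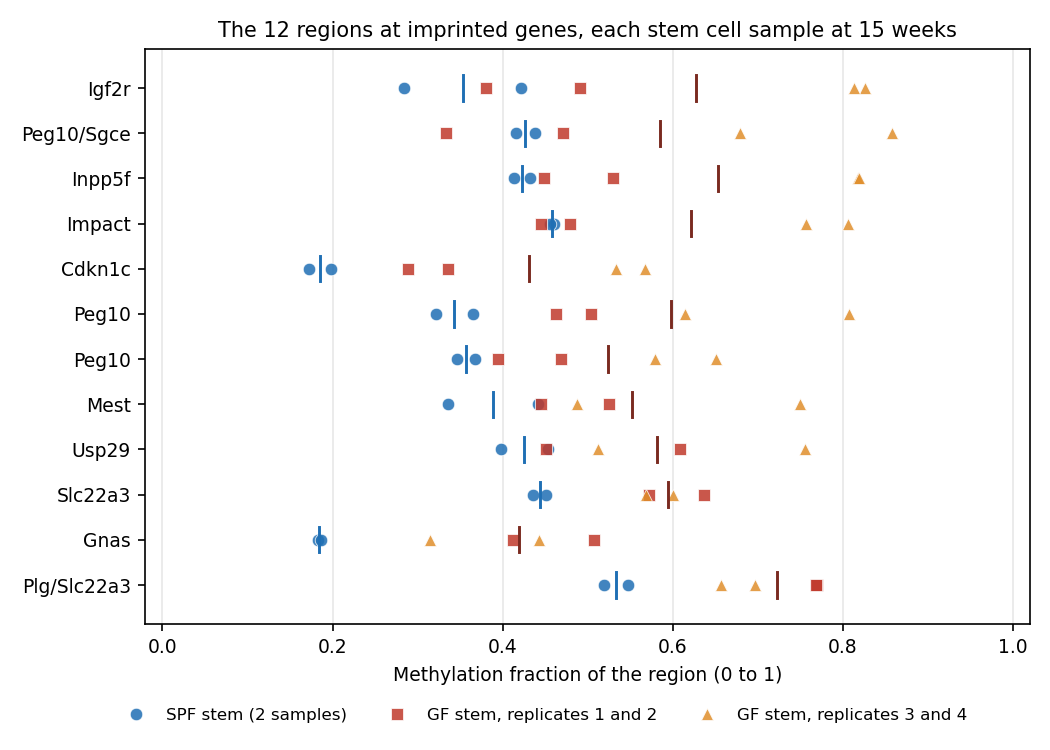
Methylation fraction (x axis) of the 12 regions at imprinted genes (y axis), ordered from the largest GFp minus Co difference down, with 1 symbol per stem cell sample at 15 weeks and a bar at each group mean. At Igf2r the GFp-style GF samples stand at 0.813 and 0.827 and the other 4 samples between 0.285 and 0.491.

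Over all regions limma called 4 higher (0.335%) and 0 lower in GFp-style than in Co-style GF stem cells, with 107 (8.95%) and 36 (3.01%) at an unadjusted p under 0.05. They are the region in the long noncoding RNA gene Gm19951, by 0.378 ± 0.063 (SE, adjusted p = 0.0092), the Peg10 and Sgce region, by 0.366 ± 0.063 (SE, adjusted p = 0.0092), Impact, by 0.319 ± 0.057 (SE, adjusted p = 0.01), and Prom1, by 0.248 ± 0.051 (SE, adjusted p = 0.037). Igf2r, with 0.384 ± 0.092 (SE, adjusted p = 0.074), did not pass. Prom1 and Gm19951 are not on the imprinted list. Gm19951 stood at 0.428 and 0.576 against 0.504, 0.592, 0.940 and 0.912, with 1 Co-style GF sample between the SPF values and the other just above them. Leaving out GF replicate 1 or 4 gave 0 calls, replicate 3 gave 1 and replicate 2 gave 20. Differentiated cells of the same split had means over the 12 imprinted regions of 0.431 and 0.447 in the Co style and 0.549 and 0.533 in the GFp style, beside 0.422 and 0.3996 in SPF cells. At 3 weeks, where all GF identifiers begin with GFp, the stem samples stood at 0.446 and 0.495 in GF and 0.457 and 0.397 in SPF mice. In SPF minus GF of differentiated cells 1 of the 12 was called lower, beside 80.7% of all regions, at Plg and Slc22a3 (-0.128 ± 0.040, adjusted p = 0.0066).

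On the X chromosome 3 of 7 regions were separate between groups, beside 95.2% of all regions. In 6 of the 7 the sexes differed in the same direction in all 3 pairs of samples. The share of all regions that do so was not counted. The exception among the 7 was the first region of Nox1, with a female minus male estimate of 0.038. Values of the 4 with the largest estimates are given here, each pair being male and then female. At the start of the predicted gene Gm35612 they were 0.046 and 0.583 in SPF cells, 0.285 and 0.801 in the Co-style GF cells and 0.257 and 0.8291 in the GFp-style ones. Females were higher in all 3 pairs, and also at Pwwp3b, at 0.037 and 0.255 against 0.216, 0.468, 0 and 0.542, and AA414768, at 0.024 and 0.276 against 0.175, 0.418, 0.107 and 0.498. Inside Firre, a long noncoding RNA gene of the X, males were higher in all 3 pairs, at 0.382 and 0.232 against 0.703, 0.419, 0.816 and 0.327. In the fit where all 20 samples share a spread, limma called 0 regions by sex in the 6 stem samples. At an unadjusted p under 0.05 it had 46 lower and 23 higher in females (3.85% and 1.92%). Fitted to the 6 stem samples alone it called 1, that of Gm35612 (adjusted p = 0.00032). Within each sex SPF samples were lower than both GF samples of that sex at Gm35612.

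Differentiated cells of the same age give the same measure in other libraries. Whether they had a part in choosing the regions is not stated, and GF replicates 3 and 4 share identifiers with the stem samples. Limma called 964 regions lower in SPF differentiated cells (80.7%) and 0 higher, with 81.8% and 0% at an unadjusted p under 0.05. The groups did not overlap in 1012 regions (84.7%). The share rose with the difference in stem cells, from 287 of 449 regions with a stem difference under 0.2 (63.9%) and 442 of 511 from 0.2 to 0.3 (86.5%) to all 167 from 0.3 to 0.4 and all 68 above. All 11 antigen presentation, 14 interferon and 10 antimicrobial regions were called. So were all 7 stem cell marker, 5 goblet cell, 5 fetal and regenerative, 4 barrier and 3 endothelial and smooth muscle regions. The calls took in 9 of 12 metabolic, 3 of 4 microbial sensing, 3 of 4 glycosylation and 1 of 3 Wnt regions. The SPF minus GF difference in differentiated cells was -0.395 ± 0.044 at B2m (SE, adjusted p = 4e-07) and -0.494 ± 0.042 at Elovl5 (adjusted p = 1.2e-08). Galnt7 (0.0079 ± 0.080, adjusted p = 0.93) and Pparg (-0.060 ± 0.047, adjusted p = 0.24) did not pass. The stem minus differentiated difference of this contrast was called at 0 regions by limma, with 44 lower and 22 higher at an unadjusted p under 0.05 (3.68% and 1.84%).

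**Figure D5:**
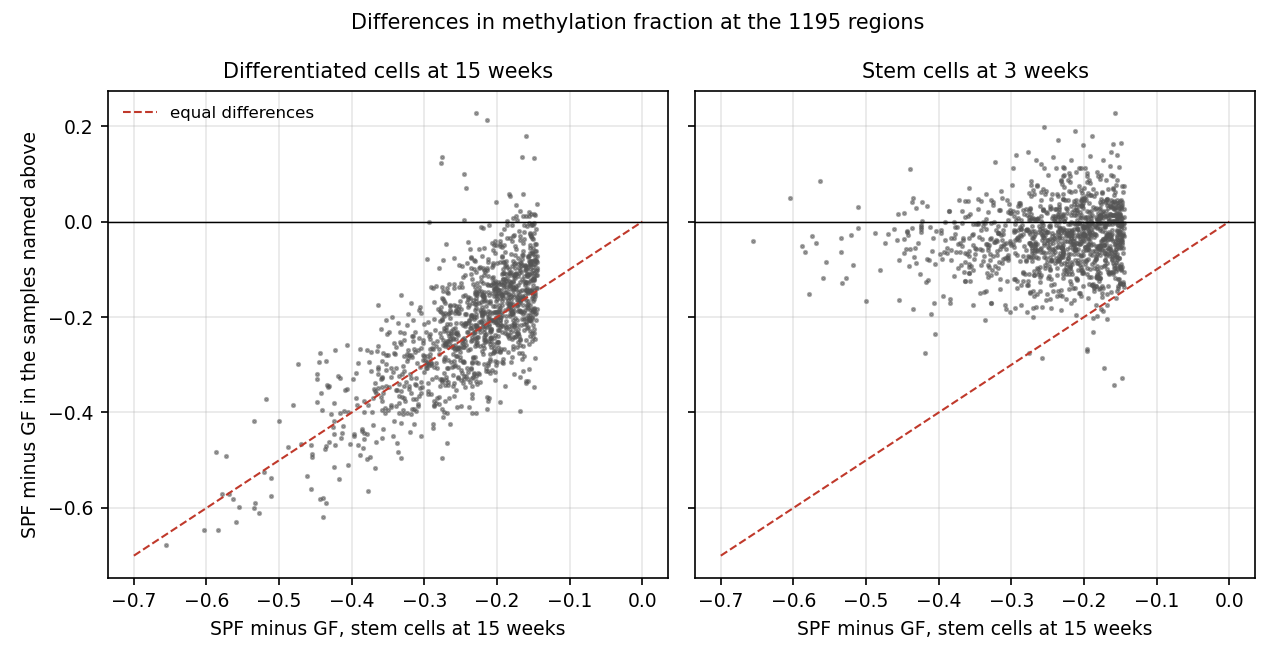
SPF minus GF difference in methylation fraction at the 1195 regions, stem cells at 15 weeks on the x axis and, on the y axis, differentiated cells at 15 weeks (left) and stem cells at 3 weeks (right); the dashed line marks equal differences. Medians on the y axes are -0.213 and -0.034.

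At 3 weeks the same regions had a median SPF minus GF difference of -0.034 in stem cells, with 0 called by limma (112 lower and 12 higher at an unadjusted p under 0.05, together 10.4%) and the SPF mean lower in 848. The 2 SPF values lay under both GF values in 393 regions (32.9%). With 2 against 2 samples this order arises by chance more often than with 2 against 4. The share is therefore not directly comparable with those at 15 weeks, and the limma calls at 3 weeks rest on fewer samples. The difference at 15 weeks exceeded that at 3 weeks in 651 regions (54.5%) by limma, and in 63.0% at an unadjusted p under 0.05, although the 15-week samples of that test are those that chose the regions. Without SPF replicate 2 at 15 weeks the count was 410. With the replicate number as a block the 3-week contrast had 11 calls, 10 of them lower. Averaged over regions, SPF stem cells stood at 0.572 at 3 weeks and 0.354 at 15 weeks, and GF stem cells at 0.607 and 0.596. At the single loci below, the 15-week values stood on different sides of the 3-week level. How many regions follow each pattern was not counted. In 5 regions 52674 to 70253 bp from Ppara, the gene of a lipid-sensing nuclear receptor, 3-week means ran from 0.645 to 0.809 over both groups. At 15 weeks they were 0.103 to 0.237 in SPF and 0.3004 to 0.556 in GF cells, so both groups were below. At Kcne3, a potassium channel subunit gene of the stem cell list, 3-week means were 0.839 in SPF and 0.847 in GF cells, and 15-week values were 0.249 and 0.172 against 0.462, 0.423, 0.515 and 0.428. At Esrrg, an orphan nuclear receptor gene, the 3-week means were 0.278 and 0.285. There the 15-week values were 0.234 and 0.334 against 0.681, 0.584, 0.597 and 0.510, with SPF cells near the 3-week level and GF cells above it. A region of Gm20388 had both groups above, with 3-week means of 0.213 and 0.149 and 15-week values of 0.415 and 0.346 against 0.532, 0.553, 0.643 and 0.642. Each 3-week mean is over 2 samples.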

How the data were processed

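The assay was bisulfite sequencing of whole genomes. Per the labels' protocols, genomic DNA was extracted with the AllPrep kit, libraries were made with xGen Methyl-Seq and conversion was done with the EZ DNA Methylation-Direct kit. BSMAP 2.90 and mm10 are named in the submitters' processing notes. No source used here gives the region caller, coverage filter or trimming. The authors deposited 1 table of 1195 regions with the methylation fraction of each region in each of 20 samples, a p-value whose adjustment is not stated, a difference whose groups the header does not name and the number of CpGs, which was at least 10. Their p-values and differences served only to describe or select regions. Reads per value are not given, so precision cannot be set from depth, and whether coordinates start at 0 or 1 is not stated.

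Fractions were analysed with limma 3.58.1 in R 4.3.3, with all 20 samples in 8 groups sharing a spread, Benjamini-Hochberg adjustment over all 1195 regions and a threshold of 0.05. The fit took all samples as independent, also stem and differentiated samples that share an identifier. The fit was tested on simulated data. The split by identifier style used 10 groups, and the fit by sex had a term for stem cells at 15 weeks. Tables were made with Python 3.11.15, pandas 2.3.3 and NumPy 2.4.6. A region takes the gene names of the deposited annotation, or else the nearest or overlapping RefSeq gene. Promoter sequences are RefSeq's (GRCm38.p6).

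Members and gene lists were chosen with earlier results of these data known. Regions were named by rule: the 12 largest and 3 smallest differences, up to 6 per gene list, genes with 4 or more regions, the 5 lowest and 5 highest SPF means, the 5 largest differences by identifier style, by sex and by each interaction in each direction, and those nearest the authors' limits. Imprinted genes, X-linked regions, groups of neighbouring regions, start sites and further single regions were added after their values were seen. Alternatives were a logit scale with an offset of 0.01, only the groups compared, a replicate block, sex as a covariate, each GF identifier style, a deposited difference of at least 0.2, at least 15 CpGs and leaving out each sample. The values of 1 gene on the interferon list are not reported here.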

Additional observations from a re-analysis of the deposited data

Results flagged for a closer look

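In the GF stem cells at 15 weeks, 221 named regions were examined for a sample far from the other 3, by the gap to its nearest neighbour as a share of the group's range, and 9 passed Dixon's 95% critical value for 4 samples. Chance alone flags about 1 group in 20. The values in brackets below are this gap as a share of the range, not methylation fractions. GF replicate 3 stood low at Pecam1 (0.983) and Ido1 (0.895) and high at a region of Cemip2 (0.932) and at Skida1 (0.841). GF replicate 4 stood high at Ifitm3 (0.943) and low near Cast (0.891). GF replicate 2 stood high near Poc1b (0.955). GF replicate 1 stood low at a region of Cep85 (0.917) and high near Ppara (0.850).

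The SPF minus GF difference in stem cells at 15 weeks minus that at 3 weeks was called by limma in 651 regions. Since the 15-week samples chose the regions, these values describe them. At the 12 regions with the largest difference this change was -0.615 at Ciita, -0.654 at Hsd17b4, -0.535 at Mybpc1, -0.519 at Tmc5, -0.427 at Plcb4 and -0.544 at Gm31557. It was -0.525 at Irf1, -0.648 at Eml2, -0.441 at Dlg1, -0.471 at Ifi47 and Olfr56, -0.471 near Poc1b and -0.500 at Gm43464.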

How the results depend on the processing

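The SPF minus GF mean in stem cells stayed negative under every alternative run, and leaving out 1 sample gave -0.248 to -0.236. Leaving out 1 sample gave 984 to 1158 calls in stem cells, 792 to 949 in differentiated cells, 0 at 3 weeks, 0 for the difference between cell types, 410 to 670 for the difference between ages, 0 to 20 between identifier styles and 0 to 1 between sexes, and 1147 to 1164 regions without overlap. Stricter selections tested fewer regions: a deposited difference of at least 0.2 left 716, with 708 called and 700 without overlap in stem cells and 0 called between identifier styles, and at least 15 CpGs left 181, with 177 called and 171 without overlap. Fitting the 6 stem samples alone gave 1 call by sex. The cause of these last 2 changes was not tested. Gm35612 ran from -0.497 to 0.0399 when 1 sample was left out, turning without SPF replicate 1, and the Peg10 and Sgce region turned to 0.0245 with Co-style GF samples only, with or without the block. Over 221 named regions and 15 settings, 2824 results kept their side of the threshold, 190 lost the call, 43 gained it and 4 reversed. The share of regions holding a motif in central against whole sequence was not run, since no genome was used here.

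Same-numbered samples also share a sex. Their deviations from the group means correlated at 0.061 and 0.059, too low to treat them as pairs. With the replicate block, on replicates 1 and 2, stem cells had 1093 calls (1070 without the block), differentiated cells 983 (992), the difference between ages 530 (524), 3 weeks 11 (0) and the difference between cell types 0 (0). The block gave a mean difference of -0.232, and 1176 regions were lower in both same-numbered pairs.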
